A study of Mus musculus with 14 samples.

Results

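The genes described here are 6 inhibitors of cyclin-dependent kinases (CDKs), Cdkn2a, Cdkn2b, Cdkn2c and Cdkn2d of the INK4 family and Cdkn1a and Cdkn1b of the Cip/Kip family, out of 21938 protein-coding genes of the annotation. They were chosen by name as brakes of the cell cycle. For each of them the H3K27me3 sites of the list were collected that overlapped 1 kb on either side of a transcription start site (TSS), the gene body, or the 50 kb on either side of it. The 6 genes had 15 annotated start sites, and 21 of the 153983 sites of the list fell within 50 kb of them.

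The study measured H3K27me3 by ChIP-seq in immortalised mouse embryo fibroblasts (iMEF) that lived on FKBP-HA2-ASH2L, human ASH2L with an FKBP tag at its N-terminus, and followed the mark after this protein had been degraded with dTAG-13. The groups were untreated cells, which the labels call WT, and cells exposed to dTAG-13 for 30 min, 2 h, 4 h, 8 h or 16 h, each with 2 replicates, so 12 H3K27me3 libraries in 6 groups, and there were 2 input libraries, 1 of untreated cells and 1 of cells at 16 h. Controls and treated cells alike carried the fusion from a lentivirus and had lost their own floxed Ash2l alleles through a Cre-ER recombinase, and the study's ChIP-seq was done on a single clone, NG3. The data used here are 1 list of sites for all libraries together, which gives positions only, so it shows where the mark was called in at least some library and carries neither a comparison between times nor the number of reads behind a site.

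H3K27me3 is set by Polycomb repressive complex 2 and is read as a mark of silenced genes. INK4 proteins bind CDK4 and CDK6 and keep them from cyclin D, whereas Cip/Kip proteins act mainly on complexes of CDK2 with cyclins E and A, and both brakes leave the retinoblastoma protein able to hold back E2F factors. The Cdkn2a-Cdkn2b locus is a classical Polycomb target: in dividing fibroblasts it is kept silent, and loss of this silencing accompanies senescence. Cdkn2a codes for p16Ink4a and p19Arf from separate first exons, and p19Arf restrains MDM2 and thereby stabilises p53, which in turn activates Cdkn1a.

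The promoters show the sequence around which the sites were looked for. The stretches of up to 250 bases before the start are printed for the locus that is the known Polycomb target, for both Cip/Kip genes, and for Ccna1, a cyclin gene of the same pathway whose promoter lay inside a wide site. They are RefSeq sequence of GRCm38.p6, written 5′ to 3′ on the strand of the gene without annotated exon bases, with each CG dinucleotide in capitals, since clusters of CG are where Polycomb complexes are commonly found in mammalian genomes.
Cdkn2a, start of p19Arf, chr4:89294654-89294869, minus strand: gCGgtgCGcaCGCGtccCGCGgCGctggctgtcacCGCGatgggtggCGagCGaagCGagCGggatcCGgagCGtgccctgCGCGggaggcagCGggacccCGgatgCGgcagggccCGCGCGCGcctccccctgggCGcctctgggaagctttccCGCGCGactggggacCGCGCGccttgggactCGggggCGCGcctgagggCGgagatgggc
Cdkn2a, start of p16Ink4a, chr4:89282193-89282442, minus strand: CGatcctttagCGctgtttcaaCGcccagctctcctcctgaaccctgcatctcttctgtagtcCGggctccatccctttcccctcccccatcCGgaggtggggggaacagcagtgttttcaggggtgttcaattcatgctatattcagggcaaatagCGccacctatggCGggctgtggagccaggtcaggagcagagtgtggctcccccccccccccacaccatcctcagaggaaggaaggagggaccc
Cdkn2b, chr4:89311040-89311282, minus strand: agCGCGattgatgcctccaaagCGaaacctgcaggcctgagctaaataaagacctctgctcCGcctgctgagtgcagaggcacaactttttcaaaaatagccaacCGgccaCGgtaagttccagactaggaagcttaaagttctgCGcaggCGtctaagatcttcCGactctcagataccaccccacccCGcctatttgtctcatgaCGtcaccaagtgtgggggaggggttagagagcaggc
Cdkn1a, inner start, chr17:29093519-29093768, plus strand: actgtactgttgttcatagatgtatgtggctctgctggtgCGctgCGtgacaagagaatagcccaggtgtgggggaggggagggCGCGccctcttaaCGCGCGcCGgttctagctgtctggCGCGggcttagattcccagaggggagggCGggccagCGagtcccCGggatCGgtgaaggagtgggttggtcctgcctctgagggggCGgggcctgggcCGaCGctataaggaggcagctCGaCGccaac
Cdkn1b, chr6:134920151-134920400, plus strand: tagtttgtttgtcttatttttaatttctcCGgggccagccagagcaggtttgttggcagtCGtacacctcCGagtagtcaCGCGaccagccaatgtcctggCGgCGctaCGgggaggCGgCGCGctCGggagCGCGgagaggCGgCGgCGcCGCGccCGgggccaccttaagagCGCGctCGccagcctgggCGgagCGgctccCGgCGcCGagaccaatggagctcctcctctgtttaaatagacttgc
Ccna1, chr3:55055056-55055305, minus strand: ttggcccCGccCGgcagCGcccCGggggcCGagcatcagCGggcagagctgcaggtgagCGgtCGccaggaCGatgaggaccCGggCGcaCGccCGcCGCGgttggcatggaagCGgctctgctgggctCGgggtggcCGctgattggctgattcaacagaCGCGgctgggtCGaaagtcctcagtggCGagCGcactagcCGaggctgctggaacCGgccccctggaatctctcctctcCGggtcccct

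In windows of 300 bases, 250 before and 50 after a RefSeq start, the p19Arf promoter held 45 CG dinucleotides, more than 98.1% of the 32851 windows of the promoter table. The p16Ink4a window held 12, more than 60.4% of windows, and the Cdkn2b window held 18. Windows of Cdkn1b, the inner start of Cdkn1a and the single window of Cdkn2d held 30, 23 and 22. The windows of Cdkn2c held 33 and 8, and the outer start of Cdkn1a had 2, the lowest of the 9. The median over all windows was 7, with quartiles of 3 and 20. The Ccna1 window, with 35, lay within the range of the inhibitors. The letters GGGCGG of the GC box occurred on either strand in 7 of the 9 windows of the 6 genes, and in 35.7% of all windows. The letters TATAAA, a core promoter motif, occurred on either strand in 0 of the 9 windows and in 13.6% of all. By base composition within 500 bp of the outermost start, 5 of the 6 genes were CpG-rich (GC content of at least 50% and observed to expected CpG of at least 0.6). The exception was Cdkn1a, with 47.2% GC and a ratio of 0.13 at its outermost start, although its inner start had 58.3% and 0.62. In the other direction, the p16Ink4a start of Cdkn2a (52.5% and 0.54) and the inner start of Cdkn2c (49.4% and 0.62) each missed a cut. None of the 9 windows overlapped an H3K27me3 site, while the Ccna1 window did.

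None of the 6 CDK inhibitor genes had an H3K27me3 site within 1 kb of a start site (0 of 6 genes and 0 of 15 start sites), whereas 31.5% of all protein-coding genes had one, 20.1% had one at least 1 kb wide, and among genes with CpG-rich promoters the share was 25.5%. None had a site in its body either, against 46.7% of all genes, a share that was not matched for gene length. The 6 genes were 2998 to 20183 bp long. The 50 kb around them differed between the genes. Cdkn2a, Cdkn2b and Cdkn2c had no site at all, Cdkn1b had 2 narrow ones, and Cdkn2d and Cdkn1a had 7 and 12, of which 4 and 9 touched neighbouring genes. A gene without a site in its body or the 50 kb on either side was less common in the list, 12.0% of all protein-coding genes and 5.51% of those with CpG-rich promoters. Cdkn2a and Cdkn2b are neighbours whose windows overlap, so they do not count as separate regions. Unknown bases, where no site can be called, made up 25% and 28.9% of their windows. These 6 genes were the whole set, so no interval is given, and with 1 list no test could be made.

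**Figure D1:**
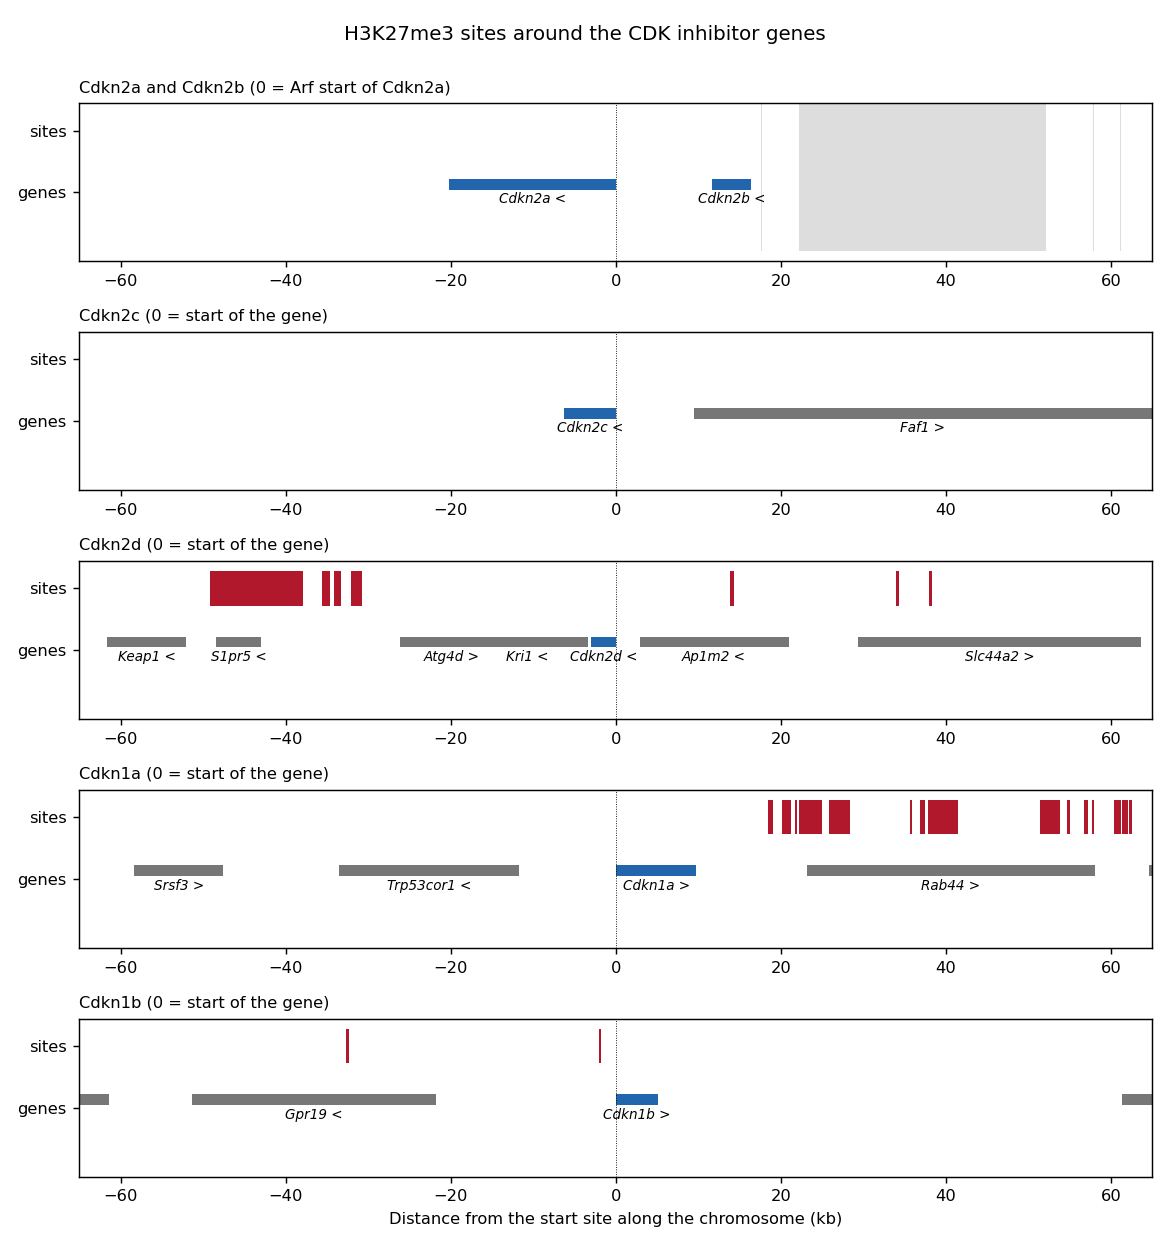
H3K27me3 sites (red, upper row) and protein-coding genes with Trp53cor1 (lower row; inhibitors blue, others grey, > and < give the strand) within 65 kb of the start of each inhibitor, with distance in kb along the chromosome on the horizontal axis and unknown bases of the assembly shaded grey. No red site lies on any blue gene; the panels of Cdkn2a with Cdkn2b and of Cdkn2c are empty, and the sites near Cdkn1a all lie on its downstream side.

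Cdkn2a (ENSMUSG00000044303.6, chr4:89274471-89294653, minus strand) and Cdkn2b (ENSMUSG00000073802.5, chr4:89306299-89311039, minus strand), which codes for p15Ink4b, shared 1 stretch without sites. It ran from chr4:89107863 to 89570752 and was 463 kb long, with 186791 bp from the p19Arf start to the site on the Mtap side and 276100 bp to the site on the other side. The nearest site to any of their start sites was 174 kb from the p16Ink4a start and 203 kb from Cdkn2b, against a median distance of 5288 bp over all protein-coding genes. The sites that ended the stretch, chr4:89107663-89107862 and chr4:89570753-89570952, were each 200 bp wide, the smallest width in the list. The stretch held Mtap, which codes for an enzyme of methionine salvage, and non-coding genes including Gm12606, Gm12609 and Gm12610, all without a site.

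The stretch was long but not unique. It ranked 37 of 8221 stretches between neighbouring sites on chromosome 4, and 596 of 153857 in the genome (0.387%) were as long, where the median was 1218 bp. Counted by genes, 1725 protein-coding genes (7.86%) had their start in a stretch as long or longer. The chromosome itself carried fewer sites per Mb (52.5) than chromosomes 6, 9 and 17 of the other inhibitors (67, 78.2 and 63.9).

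The emptiness reached further than 50 kb on both sides of the locus. In the 1037 kb made of the locus and 500 kb on either side there were 40 sites, which covered 2.76% of the bases, where sites covered 6.93% of chromosome 4. Counted by genes this was not rare. With 500 kb on either side, 28.2% of protein-coding genes had a lower share than Cdkn2a and 28.6% a lower share than Cdkn2b. Of the 40 sites, 33 lay on the Mtap side, and 32 of the 33 stood beside the Ifna genes, a cluster of type I interferon genes, with the widest of 2809 bp at chr4:88851180-88853988. The other 7 lay on the opposite side, with the widest of 1920 bp at chr4:89687726-89689645 in Dmrta1, which codes for a DM-domain transcription factor. Between the last site by the interferon genes and the start of Dmrta1 there were 814 kb with 3 sites, 681 bp in all, the widest being 281 bp. The wide sites of the region therefore lay at its 2 ends and the inhibitor genes in between.

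**Figure D2:**
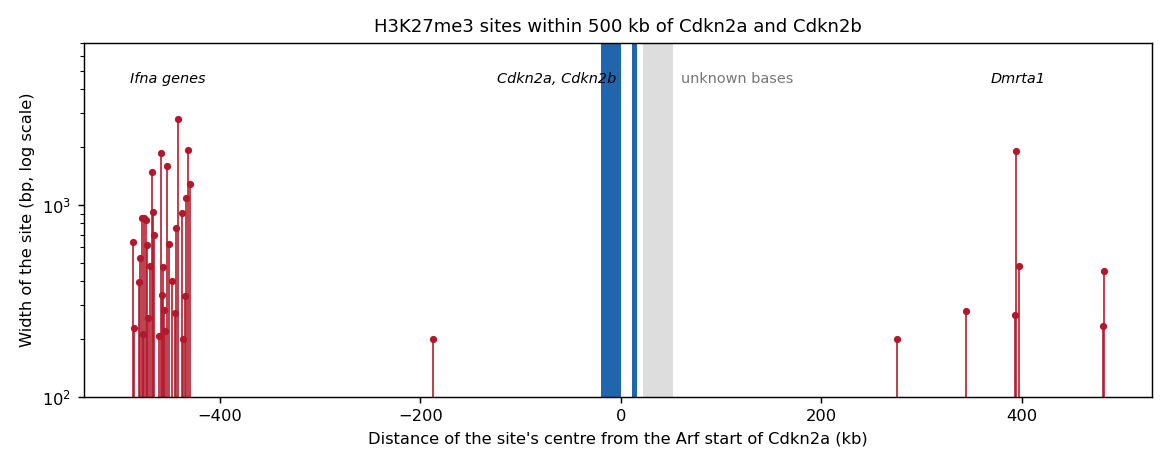
Width of each H3K27me3 site (bp, log scale, stem and point) within 500 kb of Cdkn2a and Cdkn2b against the distance of its centre from the p19Arf start in kb; blue bands are the genes, and the grey band is a run of unknown bases. Between the sites by the Ifna genes on the left and those of Dmrta1 on the right stand 3 narrow sites, the widest 281 bp.

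The sequence of the locus bears on what the list could show there. The assembly has 30400 unknown bases in the stretch, among them a run of 30000 bp at chr4:89316800-89346799 that starts 5761 bp upstream of Cdkn2b, and no site can be called in such bases. They made up 25% of the window of Cdkn2a with 50 kb on either side and 28.9% of that of Cdkn2b, and 0 bases of those of the other 4 genes, and there were none within 1 kb of any start site of the 6 genes. Repeats, marked in lower case in the assembly, made up 35.1% of the stretch and 34.5% of chromosome 4. Because reads and input were not part of the list, absence of the mark, too few reads over the locus, and absence of the locus from the cloned immortal cells cannot be told apart for any of the 6 genes.

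Cdkn2c (ENSMUSG00000028551.14, chr4:109660876-109667189, minus strand) codes for p18Ink4c. Its surroundings resembled those of Cdkn2a and Cdkn2b in having no site, here with no unknown base. The nearest site to a start was 120 kb away, and the site-free stretch was 261 kb (chr4:109545152-109806383), a length reached in 13.2% of protein-coding genes, and was ended by sites of 406 and 335 bp. Within 50 kb lay the start of Faf1, which codes for a Fas-associated factor. Sites covered 0.529% of the body of Faf1 with 5 sites, none of them at its start sites or within 50 kb of Cdkn2c.

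Cdkn2d (ENSMUSG00000096472.2, chr9:21288410-21291407, minus strand), which codes for p19Ink4d, was the only INK4 gene with sites nearby. Its 7 sites covered 15.3% of the gene and its 50 kb on either side, more than in 75.5% of protein-coding genes (quartiles 0.569%, 3.81% and 14.9%). Most of this came from 1 site of 11236 bp at chr9:21242214-21253449, which lay 34961 bp beyond the end of the gene and spanned all of S1pr5, a gene for a receptor of sphingosine 1-phosphate. The other 3 sites on this side were 866 to 1375 bp wide and touched no gene. Upstream, 3 sites of 362 to 584 bp lay in an exon of Ap1m2, a gene for a clathrin adaptor subunit of epithelia, and in introns of Slc44a2, a gene for a choline transporter-like protein. Keap1, Atg4d and Kri1, the remaining protein-coding genes within 50 kb, had none. The gene sat in a site-free stretch of 44.5 kb, which was shorter than the median over all genes of 55858 bp, and the nearest site was 13.8 kb from a start.

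Cdkn1a (ENSMUSG00000023067.14, chr17:29090976-29100727, plus strand) codes for p21, the inhibitor that p53 induces after DNA damage. Its 12 sites covered 14.0% of the gene and its flanks, more than in 73.7% of genes, and all of them lay downstream. The nearest, 606 bp wide, was 8667 bp past the end of the gene and 11494 bp from the closest start. The widest, 3543 bp, was at chr17:29128821-29132363, and 9 of the 12 touched Rab44, a gene for a Rab-family GTPase, including 1 of 2792 bp over its start. On the upstream side, with Srsf3, a gene for a splicing factor, and Trp53cor1, a p53-induced non-coding RNA, 0 sites were found within 50 kb and the first stood 86564 bp from the outermost start. The site-free stretch around Cdkn1a was 105 kb, a length reached in 32.6% of genes.

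Cdkn1b (ENSMUSG00000003031.14, chr6:134920401-134925513, plus strand) codes for p27, which accumulates in resting cells. It had the site closest to a start, 1838 bp upstream of its first start at chr6:134918363-134918563, but this site was 201 bp wide, 1 bp over the smallest width in the list. The other, 376 bp, lay in an exon of Gpr19, a gene for an orphan receptor. Together they covered 0.549% of the gene and its flanks, just under the lower quartile of all genes, and downstream the next site was 96245 bp away from the gene's start.

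Over the 6 genes the share covered was 0 in 3, 0.549% in Cdkn1b, 14.0% in Cdkn1a and 15.3% in Cdkn2d, with a median of 0.274% against 3.81% over all genes. Cdkn2d and Cdkn1a did not stand below other genes by this measure, and what they shared with the other 4 was the absence of a site on the gene itself. With 500 kb on either side the shares were 2.81%, 2.85%, 6.78% and 6.71% for Cdkn2a, Cdkn2b, Cdkn2c and Cdkn2d, and 10.5% and 1.23% for Cdkn1a and Cdkn1b. On this scale Cdkn1b was the lowest, with 18.3% of genes below it, and Cdkn1a alone was above the median of 7.91%.

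**Figure D3:**
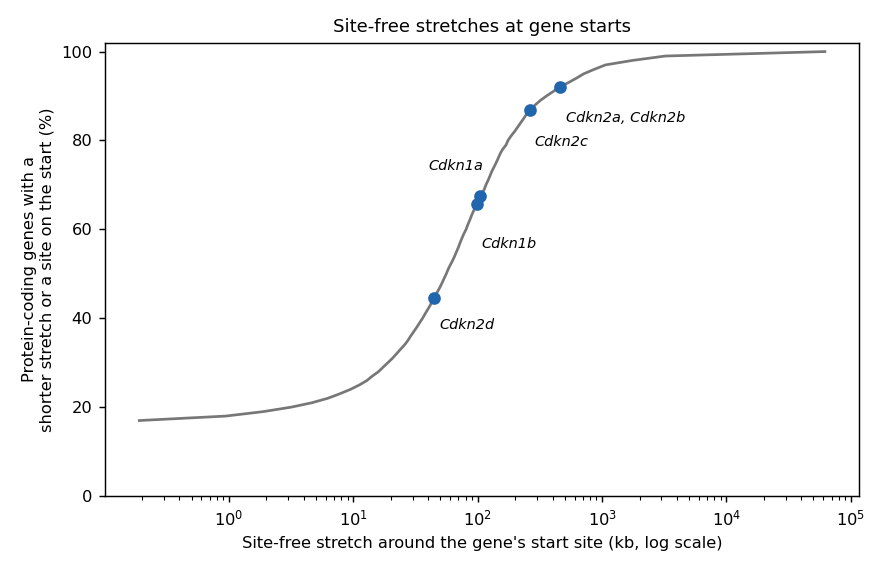
Length of the site-free stretch around the gene's start (kb, log scale) against the percentage of protein-coding genes with a shorter stretch (grey line; the 16.9% of genes with a site on the start are counted but not drawn), with the inhibitors as blue points. Cdkn2a and Cdkn2b share the point at 463 kb, and Cdkn2d at 44.5 kb is the only inhibitor below the median.

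The same list did hold sites at other genes of the pathway. Of 30 genes, 5 had a site within 1 kb of a start, and in 3 (Cdkn1c, Ccna1 and Trp73) it was at least 1 kb wide, beside 31.5% and 20.1% of all genes. Cdkn1c, which codes for p57 and is the remaining Cip/Kip inhibitor, is an imprinted gene expressed from the maternal copy. It had sites of 2039 and 1430 bp at its starts, and sites covered 50.1% of the gene and its flanks, more than in 96.2% of genes. So among the 7 CDK inhibitors of both families the sites at start sites were found at Cdkn1c only.

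Among 13 CDKs and cyclins, 2 had a site at a start, of which Ccna1, a cyclin A used mainly in germ cells, had one of 5353 bp (chr3:55052450-55057802) over 5 of its 6 starts, and 49.5% of the gene and its flanks was covered. Ccnb2 had 1 of 367 bp, 985 bp from its start. Cdk4 and Cdk6, the kinases that the INK4 proteins bind, had none, and neither did the genes for the 3 D-type cyclins. Cdk4, however, had a site of 4380 bp 1920 bp from a start, and 29.9% covered. None of 11 genes for pocket proteins and E2F factors, the targets of these kinases and the factors they hold, had a site at a start.

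Of 5 genes of the p53 arm, 2 had one. Trp73, a p53 relative, had 5 sites of 2267 to 16843 bp at its starts and 64.8% covered, and Mdm4, an inhibitor of p53, had 1 of 299 bp at 1 of its 13 starts. Trp53 and Mdm2, which connect p19Arf with Cdkn1a, had none. In 2 of the 30, Ccne2 and E2f5, there was no site in the body or 50 kb around it, as in Cdkn2a, Cdkn2b and Cdkn2c, and E2f5 lay in a site-free stretch of 1121 kb. The pathway gene closest in covered share to Cdkn2d and Cdkn1a was Cdk1 (15.5%), and to Cdkn1b it was Ccnb2 (0.498%), chosen among 30 genes. The median covered share was 6.12% over the 30 genes.

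**Figure D4:**
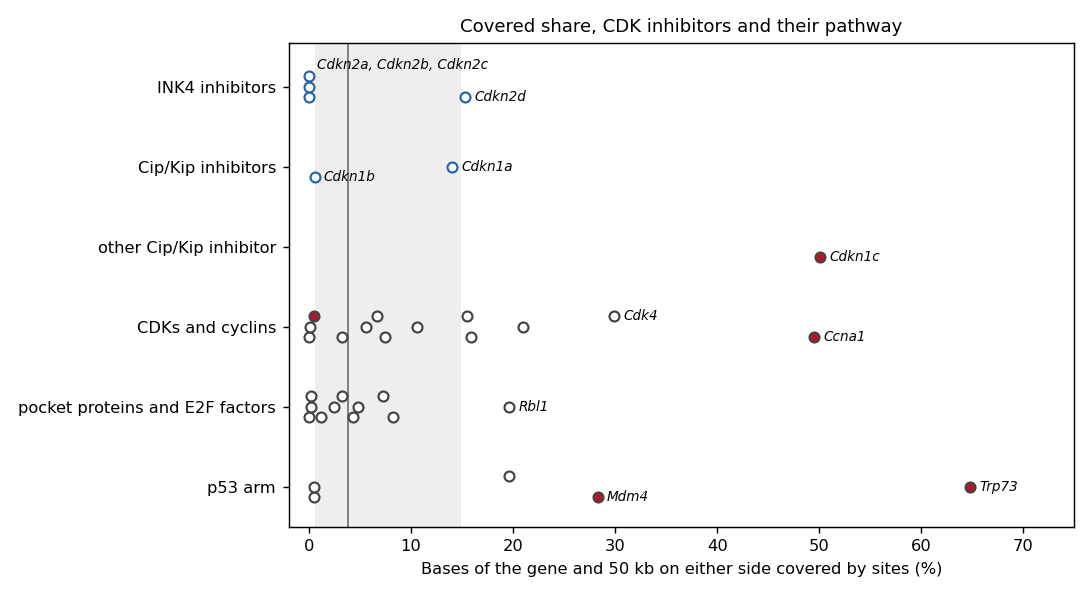
Percentage of bases of each gene and 50 kb on either side that lay in H3K27me3 sites, by gene group; blue outlines mark the inhibitors described, red fill a site within 1 kb of a start, and the grey band and line the quartiles and median of all protein-coding genes. The filled points are Cdkn1c, Ccnb2, Ccna1, Mdm4 and Trp73, and no point outlined in blue is filled.

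The label of the cells was checked against marker genes, with a site at a start read only as presence of the mark and not as expression. Among 12 fibroblast markers 4 had a site at a start, a share close to the 31.5% of all genes, and in 0 of them was it at least 1 kb wide, beside 20.1% of all genes. The covered share of these markers with their flanks ran from 0 in Col1a2 and Col3a1, genes for fibrillar collagen, to 13.0% in Pdgfra and 16.8% in Pdgfrb, genes for receptors of platelet-derived growth factor, with a median of 0.44%. Of 7 epithelial markers 6 had one, in 4 (Epcam, Cdh1, Krt14 and Esrp1) at least 1 kb wide. Of 4 endothelial markers, Kdr had one, of 5422 bp, while Pecam1, Cdh5 and Tek had none, beside 31.5% of all genes.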

How the data were processed

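H3K27me3 was measured by ChIP-seq in 14 libraries, 12 of the mark and 2 of input. Per the study's methods the authors used Trim Galore for trimming and BWA for alignment to mm10 (GRCm38.p6), filtered with samtools after ENCODE, merged replicates with Picard and called broad peaks with MACS, and libraries of an experiment were brought to the lowest coverage among them. The submitters' processing notes name MACS2. Versions, the call threshold and the rule by which peaks of all samples became 1 list are not given in the sources used here. The deposited list holds the chromosome, start and end of each site in bp, and 0 columns of values per library, so the planned comparison of treated and control cells could not be made from it, and the depth behind a site is unknown. The study also reports which sites changed significantly at each time against untreated cells in this experiment, and those were not used here. Starts were read as counted from 0, since the smallest width is then 200 bp, and are printed counted from 1.

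Genes and start sites came from GENCODE M21, and protein-coding genes on assembled chromosomes formed the background. Computed with Python 3.11.15 were sites within 1 kb of any start site, the share of bases covered with 50 kb on either side of the gene, the site-free stretch around the gene's outermost start, and CG dinucleotides in RefSeq promoter windows. Figures were drawn with matplotlib 3.10.9. The functions, tested on simulated data, gave the right values for all 200 features drawn.

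The members and lists were chosen with earlier results of these data known. Named are the 6 genes, the sites at, nearest to and widest near each, protein-coding genes within 50 kb, and genes of the pathway lists with a site of at least 1 kb at a start. Other non-coding neighbours, pathway and marker genes were named after their values were seen. A further marker list is not reported here. Alternatives were joined sites, wider sites, other windows and overlaps, other start sites and other flanks.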

Additional observations from a re-analysis of the deposited data

How the results depend on the processing

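Of 82 values recomputed under alternatives, 57 stayed within 1.5 times of the main value and 25 moved by more. Counts, shares and lengths have no direction that could change. Some of the 57 were values of 0 that a narrower setting could not raise. The count of 0 members with a site at a start became 1, Cdkn1b, with 2 kb on either side, beside 37.2% of all genes. It stayed 0 when sites were joined. A smaller window, fewer start sites, stricter overlap or wider sites only could not raise a count of 0. Their result was therefore fixed in advance and says nothing of how stable the count is. With 20 kb and 100 kb on either side the covered share of Cdkn2d was 1.36% and 9.34%, and in the gene body alone it was 0 for Cdkn2d, Cdkn1a and Cdkn1b. With 500 kb on either side, chosen after seeing the data, it was 2.81% for Cdkn2a, 2.85% for Cdkn2b, 6.78% for Cdkn2c, 6.71% for Cdkn2d and 1.23% for Cdkn1b. Joining sites closer than 5 kb gave 21.9% for Cdkn1a. With sites of at least 500 bp or at least 1 kb only, the share of Cdkn1b was 0. Except at Cdkn2d, the site-free stretches were ended on at least 1 side by a narrow site. With sites of at least 500 bp only, they measured 822391 bp (Cdkn2a and Cdkn2b), 447319 bp (Cdkn2c), 199195 bp (Cdkn1a) and 414211 bp (Cdkn1b). With at least 1 kb only, they measured 822391, 1521078, 200906 and 414211 bp in the same order. The stretch of Cdkn2d, ended by sites of 1375 and 584 bp, stayed at 44478 bp with at least 500 bp. It measured 603818 bp with at least 1 kb.

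No paired analysis was possible because sites are given by position alone, without a value for any replicate. Leaving out each replicate was not run on the same ground. The depth behind a site is unknown, and an unmarked gene and one with too few reads cannot be told apart. The list joins 6 groups, and a site called at 1 time is listed in the same way as one called at all.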
